A study of Rattus norvegicus with 12 samples.

Results

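The genes described here are 10 inflammatory cytokine and NF-kB genes measured by RNA-seq in rat brain: Il1b, Tnf, Il6, Ccl2, Il1r1, Tnfrsf1a, Nfkbia, Socs3, Icam1 and Vcam1. They were taken by symbol from a table of 17337 gene rows in 12 libraries, and each symbol was found once. The test across genes covered 12850 genes, among them 8 of the 10; Tnf and Il6 had too few counts to enter it. Several of the others were also low, so read counts are given beside the levels. A level is the normalised read count (CPM, counts scaled to library size with TMM factors), and 1 count was worth 0.0195 to 0.0252 CPM.

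The libraries came from male Sprague-Dawley rats labelled postnatal day 60, with 3 libraries in each of 4 groups. Sham rats were the unligated controls. BDL rats had their bile duct ligated, with a modelling time of 4 weeks, which is used as a model of cirrhosis with hepatic encephalopathy. The other two groups carried the same ligation and had received an adeno-associated virus (AAV), encoding either green fluorescent protein (AAV-GFP) or the lymphatic growth factor VEGFC (AAV-VEGFC), as 20 μl injected into the cisterna magna. Neither sham nor BDL rats are labelled as injected, so the vector and the injection cannot be told apart against BDL. Comparisons of all ligated libraries with sham pool BDL with both vector groups, so ligation and vector cannot be told apart there. A serotype, a promoter and an interval from injection to sampling were not given in the sources used here. Middle brain is the tissue of the design text, whereas the sample labels name brain only. Of 13 midbrain neuron markers found, Lmx1b, Foxa1 and Foxa2 were at 0 counts in all 12 libraries and the others were detected in at least 1; the list summed to 52.5 to 82.5 CPM a library. Slc17a7, a glutamate transporter gene of cortical neurons, stood at 1249 to 2028 CPM, and the tissue is called brain here.

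NF-kB is a family of transcription factors held in the cytoplasm by IkB proteins. Interleukin-1 and tumour necrosis factor, acting through their receptors, activate the IkB kinase complex, which marks IkB for degradation and frees NF-kB to enter the nucleus, where it drives cytokine, chemokine and adhesion genes and also the gene of its own inhibitor, Nfkbia. Interleukin-6 acts through the JAK-STAT3 pathway, in which Socs3 is the feedback inhibitor. In brain, microglia and endothelium are well-known sites of this response, and the endothelial adhesion molecules ICAM-1 and VCAM-1 let leukocytes attach to the vessel wall.

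Library totals lay between 40296297 and 51669067 counts. Some libraries stood apart in genes of neighbouring tissue or in overall likeness: Sham 2 had 245 CPM of the choroid plexus gene Ttr, AAV-GFP 1 had 47.8 CPM of oxytocin (Oxt) and 235 CPM of Cd74, AAV-VEGFC 3 had 27.8 CPM of growth hormone (Gh1), and AAV-VEGFC 1 correlated least with the rest across genes (mean 0.968). Ribosomal Rn18s took 0.137% to 0.306% of the counts without vector and 0.430% to 1.16% with vector; its part in the differences between these groups was not tested. Low counts were unevenly filled over the whole table: the value 1 occurred 731 times, 2 occurred 889 times and 3 occurred 1834 times. How this arose was not tested, and a listed 0 is therefore not taken as proof that no read was present. The design text gives 3 rats per group without saying which library came from which, so p-values measure the spread between these libraries.

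Promoters of 9 of the 10 genes were matched in RefSeq (build GRCr8; 250 bases before to 50 bases after the annotated start), all but Ccl2. The NF-kB binding consensus (kappaB, 10 bases, searched by that name on both strands) matched in 5 of the 9, those of Il6, Nfkbia, Il1r1, Socs3 and Vcam1, and in 7.51% of all 33469 rat promoters of this length. The STAT palindrome TTCNNNGAA matched in the Icam1 promoter and in 8.87% of all promoters. The promoter of Nfkbia, which passed the test in 3 comparisons, is shown with those of the adhesion genes Vcam1 and Icam1, which passed in none. Each runs 5′ to 3′ on the gene's own strand, and capitals mark the kappaB match in Nfkbia (first base at position -31 from the start) and Vcam1 (position -93) and the STAT match in Icam1 (position -107). Nfkbia lies on the minus strand at chr6:78597023-78597322, Vcam1 on the minus strand at chr2:206742734-206743033 and Icam1 on the plus strand at chr8:27829595-27829894. A match describes these letters and is not evidence of binding. Only exact matches to the consensus were sought. A promoter without a match, as for kappaB in Icam1, may hold a variant site that was not searched.
Nfkbia: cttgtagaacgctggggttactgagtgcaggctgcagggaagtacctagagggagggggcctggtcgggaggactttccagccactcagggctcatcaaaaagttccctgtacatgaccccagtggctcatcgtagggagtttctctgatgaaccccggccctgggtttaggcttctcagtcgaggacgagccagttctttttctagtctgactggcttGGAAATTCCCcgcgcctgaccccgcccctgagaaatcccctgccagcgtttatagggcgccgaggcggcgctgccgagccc
Vcam1: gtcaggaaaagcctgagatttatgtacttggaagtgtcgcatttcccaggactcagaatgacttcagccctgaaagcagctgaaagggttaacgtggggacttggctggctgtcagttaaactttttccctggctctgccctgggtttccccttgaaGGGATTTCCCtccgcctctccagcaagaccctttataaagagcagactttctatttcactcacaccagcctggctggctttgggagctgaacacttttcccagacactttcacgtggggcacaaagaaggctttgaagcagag
Icam1: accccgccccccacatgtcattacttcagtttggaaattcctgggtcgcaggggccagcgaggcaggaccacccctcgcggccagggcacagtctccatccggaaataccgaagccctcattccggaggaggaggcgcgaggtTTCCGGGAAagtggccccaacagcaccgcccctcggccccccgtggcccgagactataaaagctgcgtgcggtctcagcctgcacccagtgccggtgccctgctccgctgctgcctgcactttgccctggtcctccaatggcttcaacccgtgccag

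Among the secreted ligands, none passed the test in any comparison, and all 4 were at low counts. Il1b encodes interleukin-1 beta, the cytokine released by activated microglia and macrophages. Its counts were 19, 8 and 4 in sham libraries 1 to 3, 28, 19 and 22 in BDL, 44, 9 and 34 in AAV-GFP, and 18, 11 and 37 in AAV-VEGFC. The BDL libraries all lay above the sham libraries on the CPM scale, while each vector group held 1 library (AAV-GFP 2 and AAV-VEGFC 2) within the sham range. Mean Il1b levels were 0.210 ± 0.144 CPM in sham, 0.484 ± 0.108 in BDL, 0.596 ± 0.365 in AAV-GFP and 0.495 ± 0.299 in AAV-VEGFC (SD, n = 3 each). The log2 fold change of BDL against sham was 1.18 ± 0.68 (SE; 95% interval -0.32 to 2.67; edgeR adjusted p = 0.947). With all ligated libraries against sham it was 1.29 ± 0.59 (edgeR adjusted p = 0.183), and the 3 ligated groups did not differ from each other beyond their spread.

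Ccl2 encodes the chemokine MCP-1, which draws monocytes. It had 4, 7 and 0 counts in sham, 7, 7 and 5 in BDL, 21, 16 and 25 in AAV-GFP, and 15, 10 and 42 in AAV-VEGFC. Every vector library was above every library without vector, and AAV-VEGFC 3 was the highest of all. In CPM the group means were 0.0736 ± 0.0714 in sham, 0.134 ± 0.0288 in BDL, 0.429 ± 0.0707 in AAV-GFP and 0.500 ± 0.377 in AAV-VEGFC (SD, n = 3 each). AAV-GFP against BDL gave a log2 fold change of 1.67 ± 0.75 (SE; 95% interval 0.03 to 3.31) and an edgeR adjusted p of 0.234. AAV-VEGFC against BDL gave 1.89 ± 0.75 (adjusted p = 0.125), which was 1.09 without AAV-VEGFC 3. A difference between the 2 vector groups was not detectable at these counts (0.22 ± 0.68, 95% interval -1.28 to 1.71).

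Tnf, the tumour necrosis factor gene, was listed at 0 in 10 of the 12 libraries and at 3 counts in Sham 3 and in AAV-VEGFC 3. Il6 had 3, 5 and 0 counts in sham, 3, 0 and 3 in BDL, 3, 10 and 8 in AAV-GFP, and 4, 0 and 0 in AAV-VEGFC. The 2 highest Il6 libraries were both AAV-GFP, but AAV-GFP 1 lay within the range of the other groups. Over these genes and 5 comparisons, exact two-sided permutation tests of CPM gave no p under 0.2 (0.833 after Benjamini-Hochberg adjustment over the 10 tests); 3 libraries against 3 cannot go below 0.1. At 0 to 10 counts a library, differences in Tnf and Il6 were not detectable at this depth.

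**Figure D1:**
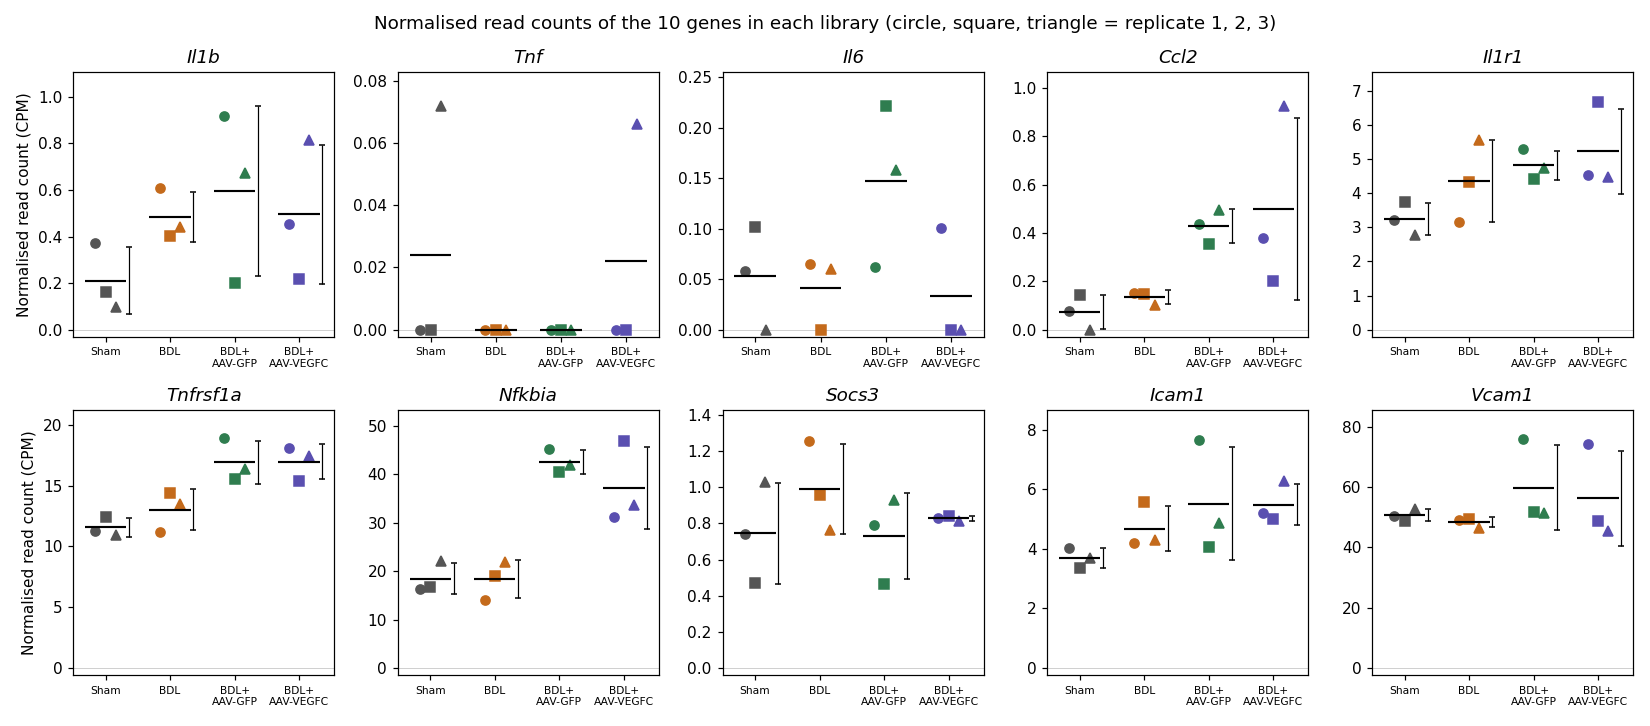
Normalised read count (CPM, linear axis from 0) of each of the 10 genes in the 12 libraries; horizontal bars are group means, vertical bars the SD of 3 libraries (not drawn for Tnf and Il6). Nfkbia separates the libraries with vector (31.1 to 46.7 CPM) from those without (14.1 to 22.1 CPM), and Vcam1 is high in AAV-GFP 1 and AAV-VEGFC 1 alone.

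Of the signalling receptors, Tnfrsf1a passed the test only with all ligated libraries against sham, and Il1r1 did not pass. Tnfrsf1a encodes TNFR1, through which tumour necrosis factor activates NF-kB. Its levels were 11.3, 12.4 and 10.97 CPM in sham, 11.2, 14.4 and 13.5 in BDL, 18.9, 15.5 and 16.4 in AAV-GFP, and 18.1, 15.3 and 17.4 in AAV-VEGFC (459 to 905 counts). All 6 vector libraries were above all 6 libraries without vector, and sham and BDL overlapped. BDL against sham gave a log2 fold change of 0.17 ± 0.12 (SE, edgeR adjusted p = 0.987). Over all ligated libraries Tnfrsf1a rose against sham, by 0.42 ± 0.10 on the log2 scale (SE; 95% interval 0.21 to 0.64; edgeR adjusted p = 0.0217). That call ended without Sham 1 or Sham 3 (adjusted p = 0.127 in each case) and stood without Sham 2, AAV-GFP 1 and AAV-VEGFC 1 together (0.43, adjusted p = 0.0164). Against BDL, the log2 fold change was 0.38 ± 0.12 for AAV-GFP (edgeR adjusted p = 0.0928) and 0.38 ± 0.12 for AAV-VEGFC (adjusted p = 0.0654). For AAV-VEGFC against AAV-GFP it was 0.00 ± 0.12, with a 95% interval of -0.26 to 0.26.

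Il1r1, the signalling receptor for interleukin-1, which is known in brain from endothelium, had 3.22, 3.73 and 2.77 CPM in sham, 3.16, 4.34 and 5.54 in BDL, 5.28, 4.42 and 4.73 in AAV-GFP, and 4.51, 6.66 and 4.48 in AAV-VEGFC (116 to 334 counts). The vector libraries all exceeded the sham libraries, whereas BDL 1 lay within the sham range. All ligated libraries against sham differed by 0.56 ± 0.19 on the log2 scale, with an edgeR adjusted p of 0.0921. Group means were in the order sham, BDL, AAV-GFP and AAV-VEGFC, and no neighbours in that order differed beyond their spread (log2 differences of 0.42 ± 0.23, 0.14 ± 0.23 and 0.12 ± 0.23).

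Nfkbia rose in both vector groups against BDL, and sham and BDL did not differ beyond their spread. It encodes IkB-alpha, the inhibitor that retains NF-kB in the cytoplasm and is itself an early NF-kB target. The libraries had 16.4, 16.8 and 22.1 CPM in sham, 14.1, 18.9 and 21.8 in BDL, 45.1, 40.4 and 41.9 in AAV-GFP, and 31.1, 46.7 and 33.6 in AAV-VEGFC, from 649 to 2341 counts. The lowest vector library was above the highest library without vector, and the AAV-GFP and AAV-VEGFC groups overlapped. Against BDL, AAV-GFP was higher by 1.22 ± 0.19 on the log2 scale, or 2.32-fold (SE; 95% interval of the log2 value 0.80 to 1.63; edgeR adjusted p = 0.00287). AAV-VEGFC was higher than BDL by 1.02 ± 0.19, or 2.03-fold (95% interval 0.61 to 1.44; adjusted p = 0.00624), but the adjusted p was 0.0626 when only these groups were fitted. The 2 vector groups did not differ beyond their spread (AAV-VEGFC minus AAV-GFP -0.19 ± 0.19, 95% interval -0.60 to 0.21), nor did BDL and sham (-0.01 ± 0.19, 95% interval -0.42 to 0.40). Over all ligated libraries the difference from sham was 0.74 ± 0.16 (adjusted p = 0.0148), a mean that includes the BDL group; it did not pass without Sham 1 (adjusted p = 0.112) or without Sham 2 (0.0772).

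Other measures moved with Nfkbia. Summed endothelial markers (14 of 16 found, all above 0 in every library) were 406 to 468 CPM in sham, 444 to 585 in BDL, 662 to 719 in AAV-GFP and 685 to 774 in AAV-VEGFC, with the vector libraries above all others as for Nfkbia. In bulk tissue, more cells of a type and more RNA per cell cannot be told apart, and the part of these markers in the Nfkbia difference was not tested. The Nfkbia log2 fold change of AAV-GFP against BDL stayed between 1.06 and 1.36 whichever library was left out, with edgeR adjusted p at most 0.0167.

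Socs3, the feedback inhibitor of JAK-STAT3 signalling, did not pass the test in any comparison. Its counts were 38, 23 and 43 in sham, 58, 45 and 38 in BDL, 38, 21 and 47 in AAV-GFP, and 33, 42 and 37 in AAV-VEGFC. The groups overlapped in every comparison. Mean levels were 0.746 ± 0.279 CPM in sham, 0.992 ± 0.249 in BDL, 0.729 ± 0.239 in AAV-GFP and 0.828 ± 0.0131 in AAV-VEGFC (SD, n = 3 each). The highest and lowest group means, BDL and AAV-GFP, differed by -0.44 ± 0.36 on the log2 scale (AAV-GFP minus BDL; 95% interval -1.24 to 0.36; edgeR adjusted p = 0.538).

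Neither adhesion gene passed the test, and single libraries stood above the rest of their groups. Icam1, the endothelial ligand for leukocyte integrins, had 4.03, 3.34 and 3.68 CPM in sham, 4.18, 5.57 and 4.30 in BDL, 7.66, 4.05 and 4.87 in AAV-GFP, and 5.20, 4.99 and 6.28 in AAV-VEGFC (154 to 367 counts). Every ligated library was above every sham library, by a narrow margin for AAV-GFP 2. The log2 fold change of all ligated libraries against sham was 0.50 ± 0.19 (SE; 95% interval 0.08 to 0.92), with an edgeR adjusted p of 0.12. AAV-GFP against BDL gave 0.24 ± 0.23, which was -0.08 without AAV-GFP 1, the highest library.

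Vcam1, which binds the integrin VLA-4 and is made by activated endothelium and by astrocytes, had 50.3, 48.9 and 52.7 CPM in sham, 49.2, 49.4 and 46.5 in BDL, 75.9, 51.7 and 51.5 in AAV-GFP, and 74.4, 48.8 and 45.4 in AAV-VEGFC (2067 to 3640 counts). Only AAV-GFP 1 and AAV-VEGFC 1 were above 52.7 CPM, and the remaining 10 libraries spanned 45.4 to 52.7 CPM. AAV-GFP against BDL gave a log2 fold change of 0.30 ± 0.19 (edgeR adjusted p = 0.393), and 0.09 without AAV-GFP 1. AAV-VEGFC against BDL gave 0.22 ± 0.19 (adjusted p = 0.477), and -0.04 without AAV-VEGFC 1. The same 2 libraries had the highest summed microglial markers (14 of 15 found), 886 and 915 CPM against 459 to 596 CPM in the other 10. They also had the highest summed astrocyte markers (11 of 11 found), 7371 and 9901 CPM against 5420 to 6610 CPM. Summed pericyte and smooth muscle markers (12 of 12 found) were highest there too, 272 and 247 CPM against 155 to 234 CPM. The neuronal gene Slc17a7 was lowest in both, 1249 and 1262 CPM against 1410 CPM or more. Summed meningeal markers were highest in AAV-GFP 1 (274 CPM) but not in AAV-VEGFC 1 (192 CPM). The part of these cell types in the Vcam1 levels was not tested.

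**Figure D2:**
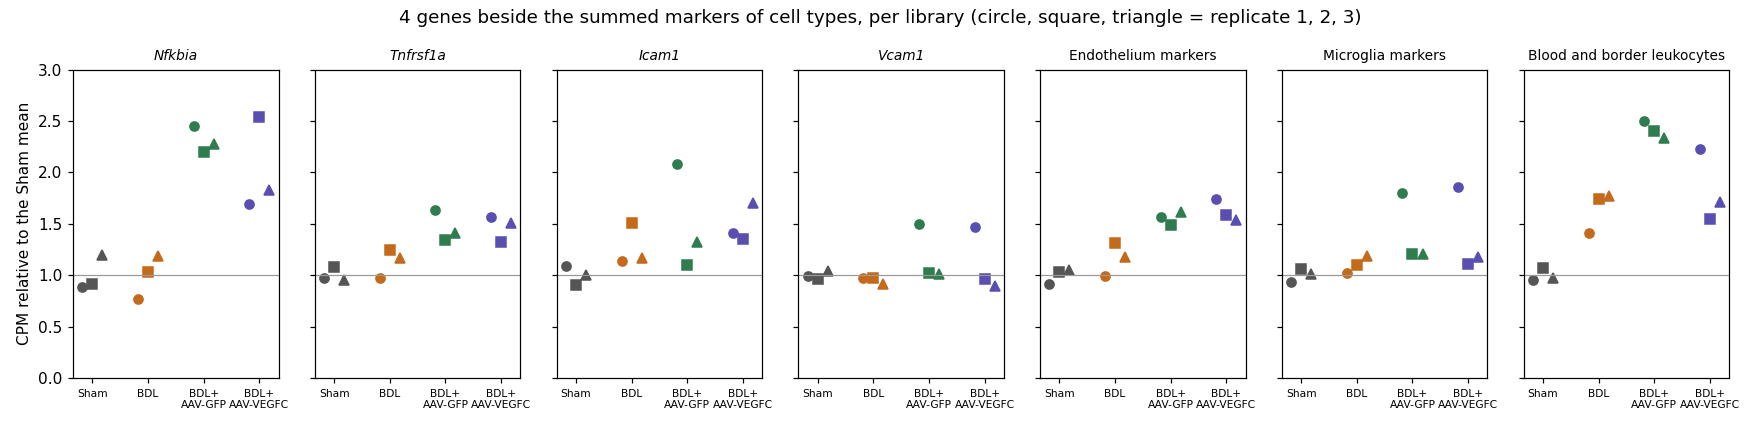
CPM relative to the sham mean (linear axis from 0) for Nfkbia, Tnfrsf1a, Icam1 and Vcam1 and for the summed markers of 3 cell types, one point per library. Nfkbia, Tnfrsf1a and the endothelial sum are higher in all 6 vector libraries than in the 6 others, whereas Vcam1 and the microglial sum are high in AAV-GFP 1 and AAV-VEGFC 1.

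Read across comparisons, 0 of the 8 tested genes passed an adjusted p of 0.05 in BDL against sham, where 0.109% of all 12850 tested genes did. AAV-GFP against BDL called 1 of 8, Nfkbia, where 6.19% of all genes were called (0.988% as higher). AAV-VEGFC against BDL called the same gene alone, where 9.93% of all genes were called (2.91% as higher). AAV-VEGFC against AAV-GFP called 0 of 8, beside 0.00778% of all genes, and 0 of the 8 had an unadjusted p under 0.05, beside 4.37% of all genes. All ligated libraries against sham called 2 of 8, Nfkbia and Tnfrsf1a, beside 10% of all genes (3.02% as higher). In BDL against sham, 0 of the 8 had an unadjusted p under 0.05, beside 5.9% of all genes; DESeq2 and limma voom also called 0 in both comparisons without a called gene. These comparisons share libraries, BDL in 4 of the 5, and are not independent of each other.

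Overlap between groups was counted separately. In BDL against sham, 2 of the 8 (Il1b and Icam1) were higher without overlap, beside 12.6% of all genes. In AAV-GFP against BDL, 4 of the 8 (Ccl2, Nfkbia, Tnfrsf1a and Vcam1) were, beside 18.2%. In AAV-VEGFC against BDL, 3 of the 8 (Ccl2, Nfkbia and Tnfrsf1a) were, beside 14.6%, and in all ligated libraries against sham 1 of 8 (Icam1) was, beside 5.05%. AAV-VEGFC and AAV-GFP overlapped for all 8, beside 6.06% of all genes without overlap in either direction. The median log2 fold change of the 8 was 0.38 in BDL against sham, 0.30 in AAV-GFP against BDL, 0.25 in AAV-VEGFC against BDL, -0.00 in AAV-VEGFC against AAV-GFP and 0.53 in all ligated against sham, where the median over all tested genes was 0.01, 0.01, 0.00, 0.01 and 0.01. The 8 include genes that passed the count filter through their higher groups. Ccl2 had 10 or more counts in vector libraries only, so its place among the 4 and the 3 above is no support for a difference. Il1b was under 10 counts in Sham 2 and Sham 3, so its place among the 2 above is no support either. These counts without overlap and these medians describe the tested genes and not the whole set of 10.

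**Figure D3:**
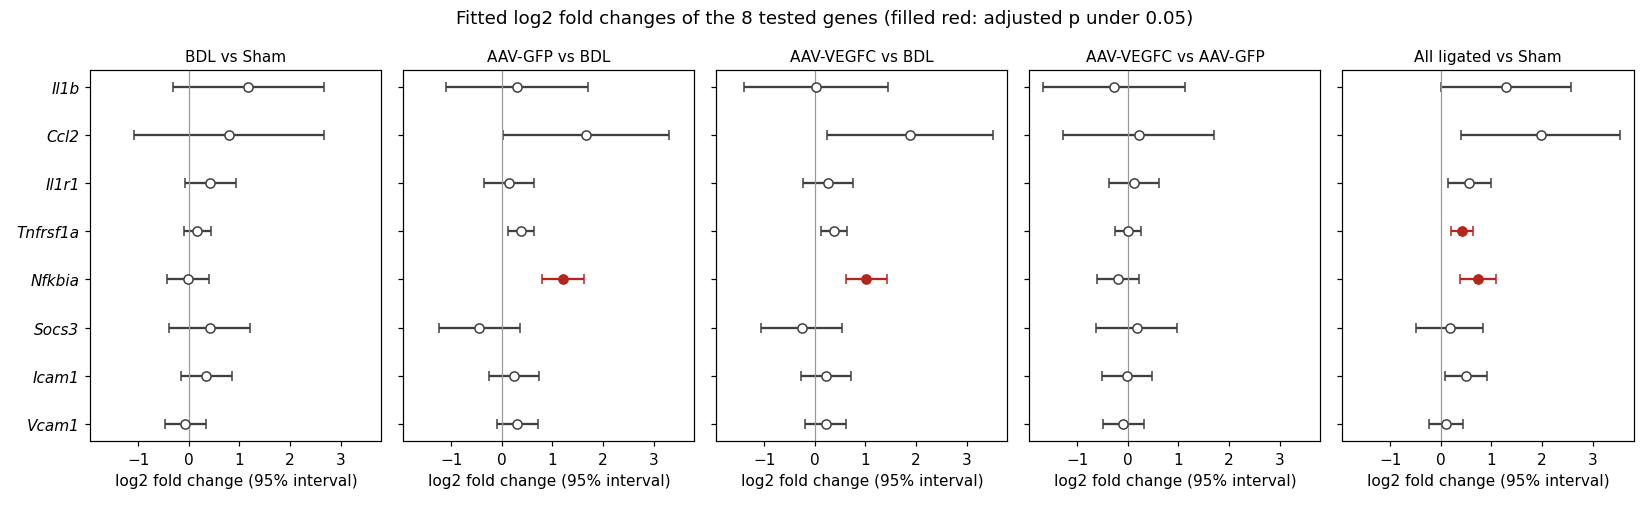
Fitted log2 fold change (horizontal axis) of each of the 8 tested genes in the 5 comparisons, with 95% intervals; filled red points have an adjusted p under 0.05. Red points are Nfkbia in AAV-GFP against BDL (1.22), in AAV-VEGFC against BDL (1.02) and in all ligated against sham (0.74), and Tnfrsf1a in all ligated against sham (0.42).

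In the core of the NF-kB pathway, 2 IkB kinase genes were lower with vector. Of 16 tested genes for NF-kB subunits, kinases and inhibitors other than Nfkbia, 0 were higher and 2 lower in AAV-GFP against BDL (5.2% of all genes were lower), and the same 2 were lower in AAV-VEGFC against BDL (7.02%). They were Chuk and Ikbkb, the catalytic subunits of the IkB kinase complex. Chuk had 40.6 ± 4.46 CPM in sham, 36.5 ± 1.19 in BDL, 25.3 ± 1.78 in AAV-GFP and 23.0 ± 3.85 in AAV-VEGFC (SD, n = 3 each). It fell by 0.53 on the log2 scale in AAV-GFP against BDL (SE 0.12, edgeR adjusted p = 0.0246) and fell by 0.67 in AAV-VEGFC against BDL (SE 0.12, adjusted p = 0.00535). Ikbkb fell by 0.33 (SE 0.08, adjusted p = 0.03) and fell by 0.36 (SE 0.08, adjusted p = 0.0148) in the same comparisons. The Chuk call in AAV-GFP ended without any 1 of the 6 libraries compared (adjusted p up to 0.0824), and the Ikbkb call there ended without 7 of the 12 libraries (BDL 1, 2 or 3, AAV-GFP 1 or 2, Sham 2 or 3; adjusted p up to 0.124). In AAV-VEGFC, the Ikbkb call ended without BDL 1 (adjusted p = 0.0694) and with only these groups fitted (0.0922), whereas the Chuk call stood with any 1 library left out (up to 0.024).

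Against sham, all ligated libraries had 4 of these 16 genes lower and 1 higher, where 7% of all tested genes were lower and 3.02% higher. Map3k14, the NF-kB-inducing kinase of the non-canonical branch, fell by 0.56 on the log2 scale (SE 0.09, edgeR adjusted p = 0.00324), from 18.5 ± 0.226 CPM in sham to 14.0 ± 1.21 in BDL, 11.5 ± 0.314 in AAV-GFP and 12.1 ± 1.91 in AAV-VEGFC. Every ligated group mean was below sham, and the call held with any 1 library left out, as did that of Chuk (-0.55 ± 0.09, adjusted p = 0.00459). Ikbkb (-0.32 ± 0.06, adjusted p = 0.00786) lost the call without Sham 1 (0.0718), and Traf3, which restrains Map3k14, (-0.36 ± 0.08, adjusted p = 0.0133) without Sham 1 or Sham 3 (up to 0.0705). Nfkbib, a second IkB gene named here after its value was seen, was higher by 0.25 (adjusted p = 0.031), and lost the call without any 1 sham library and without 4 of the ligated ones (BDL 2 or 3, AAV-GFP 2 or 3; up to 0.19).

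Genes around the receptors were read against the 10% of all tested genes called in all ligated libraries against sham. Of 26 tested genes of interleukin-1 and Toll-like receptor signalling, 2 were higher there and 1, the co-receptor gene Il1rap, lower (-0.36, edgeR adjusted p = 0.0408); its call ended without any 1 of 9 libraries (the 3 sham, the 3 BDL, AAV-GFP 3, AAV-VEGFC 2 or AAV-VEGFC 3; up to 0.176). Il1rn, the natural antagonist of the interleukin-1 receptor, rose by 1.19 ± 0.27 on the log2 scale (edgeR adjusted p = 0.017), from 0.541 ± 0.0225 CPM in sham to 1.08 ± 0.0718 in BDL, 1.27 ± 0.263 in AAV-GFP and 1.39 ± 0.515 in AAV-VEGFC. Cd14, the lipopolysaccharide co-receptor of myeloid cells, rose by 0.90 ± 0.21 (adjusted p = 0.0195). Of 16 tested genes of tumour necrosis factor signalling, 2 were higher in that comparison, Tnfrsf1b, the second receptor of tumour necrosis factor (0.85 ± 0.18, adjusted p = 0.0127), and Tradd, the adaptor of TNFR1 (0.78 ± 0.21, adjusted p = 0.0387). Each of these 4 calls ended when some single libraries were left out. The Il1rn and Cd14 calls ended without any 1 sham library (adjusted p up to 0.0931 and 0.106). The Tnfrsf1b call ended without Sham 1 or Sham 3 (up to 0.0916). The Tradd call ended without any 1 of 7 libraries (Sham 2 or 3, BDL 1, 2 or 3, AAV-GFP 2 or 3, up to 0.187). It also ended without Sham 2, AAV-GFP 1 and AAV-VEGFC 1 together (0.0876). In AAV-VEGFC against BDL, 1 of the 16 was called, beside 9.93% of all genes, the ligand gene Tnfsf12 (0.47, adjusted p = 0.0367), and it passed with 3 of the 12 libraries left out in turn (up to 0.134). Summed markers of blood and border leukocytes (17 of 17 found) were 43.5 to 48.6 CPM in sham, 63.9 to 80.5 in BDL, 106 to 113 in AAV-GFP and 70.4 to 101 in AAV-VEGFC, higher in every ligated library. Single neutrophil markers differed: Mmp8 and Fcnb were at 0 in all 3 sham libraries, and Fcnb also in BDL 2 and AAV-VEGFC 3. Camp was at 0 in Sham 1, BDL 2, BDL 3, AAV-VEGFC 2 and AAV-VEGFC 3, and above 0 in the remaining sham and ligated libraries. The part of these cells in the receptor genes was not tested.

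Of 19 tested genes of the interleukin-6 family and of JAK-STAT3 signalling, 1 rose in all ligated libraries against sham. It was Osmr, the oncostatin M receptor (1.10 ± 0.25, edgeR adjusted p = 0.0188). Lifr (-0.47 ± 0.11, adjusted p = 0.0196) and the kinase gene Jak2 (-0.33 ± 0.06, adjusted p = 0.00523) were lower. Over all tested genes 3.02% were higher and 7% lower there. Osmr stood at 0.967 ± 0.191 CPM in sham, 1.55 ± 0.310 in BDL, 2.33 ± 0.402 in AAV-GFP and 2.51 ± 0.875 in AAV-VEGFC. These calls ended without any 1 sham library for Osmr (adjusted p up to 0.099) and Lifr (up to 0.116), and without Sham 1 for Jak2 (0.0516). Tyk2, another kinase of the pathway, fell by 0.70 on the log2 scale in AAV-VEGFC against BDL (SE 0.14, adjusted p = 0.00838), and that call held with any 1 library left out but not with only these groups fitted (adjusted p = 0.1005).

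Chemokine and adhesion genes were mostly low in counts. Of 17 tested chemokine and receptor genes, Cxcl12 was the 1 called in AAV-VEGFC against BDL, beside 9.93% of all genes (0.48 ± 0.12, edgeR adjusted p = 0.0269; not past the threshold without BDL 1 or BDL 3, up to 0.116). In all ligated libraries against sham, Ccl19 and Ccl21, ligands of the lymph node homing receptor Ccr7, were called, beside 10% of all genes. Ccl19 had 3, 0 and 7 counts in sham and 15 to 61 in every ligated library (log2 fold change 3.34 ± 0.71, adjusted p = 0.0136; 0.0901 without Sham 1). The Ccl21 call (2.48 ± 0.66, adjusted p = 0.037) ended without any 1 of 8 libraries (the 3 sham, BDL 2 or 3, AAV-GFP 2 or 3, AAV-VEGFC 2; up to 0.128) and with no filter on low counts. Ccl21 had 4, 4 and 0 counts in sham. Both Ccl19 and Ccl21 were under 10 counts in every sham library and passed the count filter through ligated libraries. Their calls are therefore no support for a difference. Of 17 tested adhesion genes, Icam2, the endothelial relative of Icam1, rose by 0.81 ± 0.15 in AAV-GFP against BDL (adjusted p = 0.00933; 0.0514 without BDL 1) and by 0.99 ± 0.15 in AAV-VEGFC against BDL (adjusted p = 0.00238), from 2.97 ± 0.320 CPM in BDL to 5.20 ± 0.610 and 5.90 ± 0.711.

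Of 25 other tested NF-kB target genes, 2 rose and 2 fell in all ligated libraries against sham (over all genes, 3.02% and 7%), 1 rose and 2 fell in AAV-VEGFC against BDL (2.91% and 7.02%), and 1 rose and 0 fell in AAV-GFP against BDL (0.988% and 5.2%). Trib1, a pseudokinase, fell by 1.29 on the log2 scale against sham (SE 0.15, edgeR adjusted p = 0.000555), from 17.1 ± 2.68 CPM in sham to 9.50 ± 0.704 in BDL, 6.46 ± 1.62 in AAV-GFP and 5.53 ± 1.28 in AAV-VEGFC, and the call held with any 1 library left out. Ptgs2, the inducible cyclooxygenase that brain neurons also express, fell by 0.80 (SE 0.18, adjusted p = 0.0162), whereas Ptges, the prostaglandin E synthase, rose by 1.68 ± 0.35 (adjusted p = 0.012) at 6 to 49 counts. Both calls ended without Sham 1 or Sham 3 (adjusted p up to 0.0961 for Ptgs2 and 0.0739 for Ptges). Cd83, a surface protein of activated myeloid cells named here after its value was seen, rose by 0.53 ± 0.12 in each vector group against BDL (adjusted p = 0.0284 in AAV-GFP and 0.0217 in AAV-VEGFC); these calls ended without any 1 BDL library, and in AAV-GFP without any 1 AAV-GFP library (up to 0.11 and 0.0839). Over all 7 lists, 0 genes were called in BDL against sham or in AAV-VEGFC against AAV-GFP. Of the 34 calls on 26 list genes, 6 held with any 1 library left out: Chuk in 2 comparisons, and Icam2, Map3k14, Trib1 and Tyk2. In all other fits run 19 of the 34 held, and 5 held both there and with any 1 library left out. With only the groups compared fitted, 7 of the 9 calls in AAV-VEGFC against BDL ended (adjusted p 0.0922 to 0.178), and those of Chuk and Icam2 stood.

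**Figure D4:**
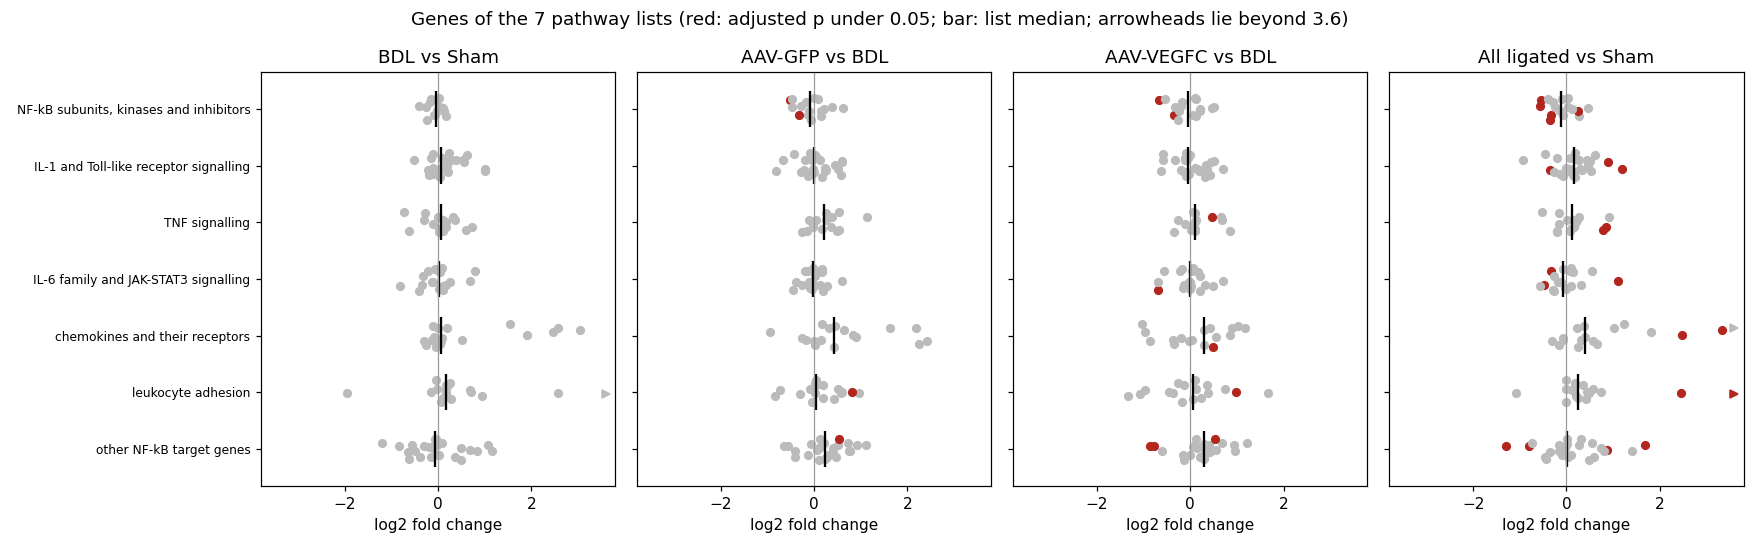
Log2 fold changes (horizontal axis) of the tested genes of 7 pathway lists in 4 comparisons; each point is a gene, red points have an adjusted p under 0.05 and bars are list medians. Red points are absent in BDL against sham, and the IkB kinase genes Chuk (-0.53) and Ikbkb (-0.33) are the red points of the NF-kB list in AAV-GFP against BDL.

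For each tested gene, the genes closest in pattern were found from the mean absolute difference of log2 CPM, centred on each gene's own mean, over the 12 libraries. Nfkbia was closest to Vwa1 (0.195) and to Ddit4, a stress- and glucocorticoid-induced inhibitor of mTORC1 (0.202), where the median gene lay at 0.575. Tnfrsf1a was closest to the oligodendrocyte lineage factor Olig1 (0.0700) and to Pltp (0.0735; median gene 0.273), and Vcam1 to Mfge8 (0.0530) and Abhd3 (0.0608; median gene 0.229). Icam1 was closest to Nt5c (0.114) and to the endothelial cadherin Cdh5 (0.123; median gene 0.308). For Il1b and Ccl2, at low counts, the closest genes were Pcdha4 (0.417, median gene 0.717) and Nfe2l3 (0.434, median gene 0.933). The likeness describes these libraries, which share depth and groups across genes, and carries no test.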

How the data were processed

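The submitters' processing notes list FastQC, Trimmomatic 0.36, HISAT2, featureCounts and the rn6 build; for annotation and strand, nothing was given in the sources used here. Raw counts by gene symbol are what the authors deposited. The 11 single-library files equal the joint table, and 26 genes named as dates were left unnamed. TMM factors, the filterByExpr filter (12850 genes kept) and 1 quasi-likelihood model of 12 libraries with a mean per group came from edgeR 4.0.16 in R 4.3.3. Calls used a Benjamini-Hochberg adjusted p under 0.05 over all tested genes, and SE came from the F statistic. The fit was tested on simulated data. Libraries of a group differed beyond sampling noise (chi-square per degree of freedom 11.6 to 227).

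The genes and lists were chosen with earlier results of these data known. Named were the 10 genes, up to 4 called genes per pathway list with the smallest p, and the 2 genes closest in pattern to each tested gene; part of these is printed. Alternatives were DESeq2 1.42.0 (size factors, or its own test), voom with quality weights (limma 3.58.1), 2 other count filters, only the groups compared, a replicate block, a threshold of 0.1, and the fit without each library in turn or without 3 that stood apart. Figures used matplotlib 3.10.9 under Python 3.11.15. Genes that overlap on opposite strands cannot be told apart.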

Additional observations from a re-analysis of the deposited data

How the results depend on the processing

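None of the 8 tested genes was called in BDL against sham or in AAV-VEGFC against AAV-GFP under any alternative. In AAV-GFP against BDL, 2 were called with DESeq2, with limma voom, with only the groups compared and at an adjusted p under 0.1, and 1 to 2 with a library left out. Beside Nfkbia, the gene called was Ccl2 with only the groups compared (edgeR adjusted p = 0.0402) and Tnfrsf1a in the rest. In AAV-VEGFC against BDL, 2 were called with DESeq2 and at an adjusted p under 0.1, 0 with only the groups compared, and 1 to 2 with a library left out. All ligated against sham gave 4 with DESeq2, 5 with voom, 1 with the replicate block (Tnfrsf1a adjusted p = 0.052) and 0 to 3 with a library left out. Ccl2 and Il1r1 were among those called with DESeq2 and with voom, and Icam1 among those called with voom. The replicate block changed no other call of the 8 genes. It ended 11 of the 34 list calls, among them Chuk (adjusted p = 0.0536) and Ikbkb (0.0585) in AAV-GFP against BDL. No filter on low counts ended 2 list calls, and leaving out Sham 2, AAV-GFP 1 and AAV-VEGFC 1 together ended 1. Same-numbered libraries did not deviate together (0 of 18 correlations over 0.1, -0.128 to 0.0686), and 2 of 12 libraries correlated best with their own number. Over all genes, calls numbered 14 in BDL against sham (12 to 74 with a library left out, 12 to 347 in other fits), 795 in AAV-GFP against BDL (386 to 2945, 550 to 4687), 1276 in AAV-VEGFC against BDL (586 to 2284, 330 to 3123), 1 in AAV-VEGFC against AAV-GFP (0 to 22, 0 to 1193) and 1287 in all ligated against sham (378 to 3199, 927 to 4506). Where a group was left with 2 libraries, its spread was taken from the shared fit. Depth limits Tnf, Il6, Ccl2 and Il1b.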
